A study of Mus musculus with 8 samples.

Results

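Heat shock proteins and mitochondrial chaperones were examined as a set of 10 genes, chosen by symbol from the 56805 rows of the count table: Hspd1, Hspe1, Hspa9, Hsp90aa1, Hsp90ab1, Hspa8, Hspa1a, Hspa1b, Hsph1 and Dnaja1. The RNA came from OT-I CD8+ T cells, whose transgenic receptor recognises a peptide of chicken ovalbumin. Cas9 was knocked in to the cells of both groups. After activation in vitro, a lentivirus gave the control group a non-targeting guide (sgNT) and the other group a guide to Elovl1 (sgElovl1), whose product is an enzyme of saturated very long-chain fatty acid synthesis. Transduced cells were sorted 3 days later by CD90.1, the surface marker of the vector, so each column is a pool of edited cells and not a clone. The labels name 8 samples, with 2 of each guide in each of 2 experiments. The deposited columns already summed the 2 mice of a guide and experiment, which left 4 columns, 1 per guide and experiment. The p-values measure only the spread of these columns around the guide and experiment terms. Between experiments each side is 1 experiment, whose 2 guide columns stand in as replicates. Those p-values do not measure how far experiments vary. The label of experiment is the only one that separates the columns beside the guide, so that anything else that differed between the experiments cannot be told apart from it.

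Heat shock proteins hold unfolded or newly made proteins until they reach their shape. In the cytosol Hsp70 proteins bind exposed stretches with the help of Hsp40 partners and of exchange factors such as Hsp110, and pass many clients on to Hsp90, while in mitochondria the Hsp70 Hspa9 draws proteins through the inner membrane and the chaperonin of Hspd1 and Hspe1 folds them in a closed chamber. Many of these genes are driven by heat shock factor 1 through inverted repeats of GAA in their promoters, and activated T cells, which enlarge and make much protein, are known to use them heavily.

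Total counts ran from 49068952 to 63623476 per column, and the limit that a count of 0 allows, 3 counts, corresponded to 0.0474 to 0.0601 CPM. CPM are counts divided by the TMM-normalised library size. Elovl1 had 110 and 93.5 CPM in the sgNT columns and 61.3 and 55.8 CPM in the sgElovl1 columns of experiments 1 and 2, and was the lower with its guide in both experiments (edgeR, adjusted p = 3.80e-28). The exact two-sided permutation p over the 4 columns was 0.333, and 2 against 2 columns can give none below it. The columns separated mainly by experiment, with 73.9% of the variance of log2 CPM on the first principal component. The 7 T cell markers, among them Cd3e and Cd8a, summed to 4638 to 4981 CPM, against 7.58 to 9.79 CPM for 4 B cell markers, 0.789 to 1.16 CPM for 4 dendritic cell markers and 9.31 to 14.9 CPM for 5 myeloid markers. Markers of CD4 T cells summed to 29.8 to 37.2 CPM, stromal markers to 26.0 to 51.5 CPM and the 3 NK cell markers to 154 to 256 CPM. Of these markers Ms4a1 of B cells, Siglech of plasmacytoid dendritic cells and Ncr1 of NK cells had no count in any column.

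The members differed far more between the experiments than between the guides, as did all genes. The median absolute log2 fold change of the tested members was 0.74 between experiments and 0.17 between guides. Over all genes tested it was 0.47 and 0.12. Here a gene is called, or past the threshold, at an adjusted p below 0.05 in edgeR. Of the 9 members that could be tested, 7 were lower in experiment 2 with either guide, by 1.39-fold to 4.66-fold, whereas 1, Hspd1, was lower in sgElovl1 cells, at 83.1% of its sgNT level. Hsp90aa1 had the largest difference between the experiments and Hspa8, the most abundant member, had 95.2% of its experiment 1 level in experiment 2 and was not called. The inducible Hsp70 genes Hspa1a and Hspa1b stayed near the limit of detection in all 4 columns. Over all 16006 genes tested, 29.2% were lower and 26.4% higher in experiment 2, and 0.437% were lower and 0.762% higher in sgElovl1 cells. Of the 9756 genes of at least 5 CPM, 4012 were lower and 3143 higher in experiment 2.

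Levels between members were compared as CPM per kilobase of transcript, averaged over the 4 columns. Hspa8 stood at 1603 and Hsp90ab1 at 1267 CPM per kilobase. Hspe1, with 229, Hsp90aa1, with 185, Hspd1, with 95.7, Hspa9, with 62.9, and Dnaja1, with 37.7 CPM per kilobase, followed in this order. The ranges over the columns of neighbours in this order overlapped, except for Hsp90ab1 and Hspe1. Below them Hsph1 had 19.6 CPM per kilobase, in a range apart from that of Dnaja1, and Hspa1b and Hspa1a had 0.0894 and 0.0298. Counting ran over whole genes with introns, and the transcript chosen for Dnaja1 was long at 5622 bases, so that these levels are approximate.

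Together the 10 members held 1.06% of the counts in sgNT and 0.960% in sgElovl1 cells of experiment 1, and 0.718% and 0.670% in experiment 2. Most of this came from Hspa8 and Hsp90ab1. Hspa8 ranked between 14 and 16 among all genes by counts in every column, while Hsp90ab1 ranked 15 and 16 in experiment 1 and 27 and 34 in experiment 2. Mitochondrially encoded transcripts took 7.72% and 9.72% of the counts in sgNT and sgElovl1 cells of experiment 1, and 10.2% and 14.3% in experiment 2, and so moved opposite to the members in both comparisons. Without them in the total the members held 1.15%, 1.06%, 0.799% and 0.783%. The part of these transcripts in the other results was not tested beyond a scaling without them, under which the same number of members were called.

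**Figure D1:**
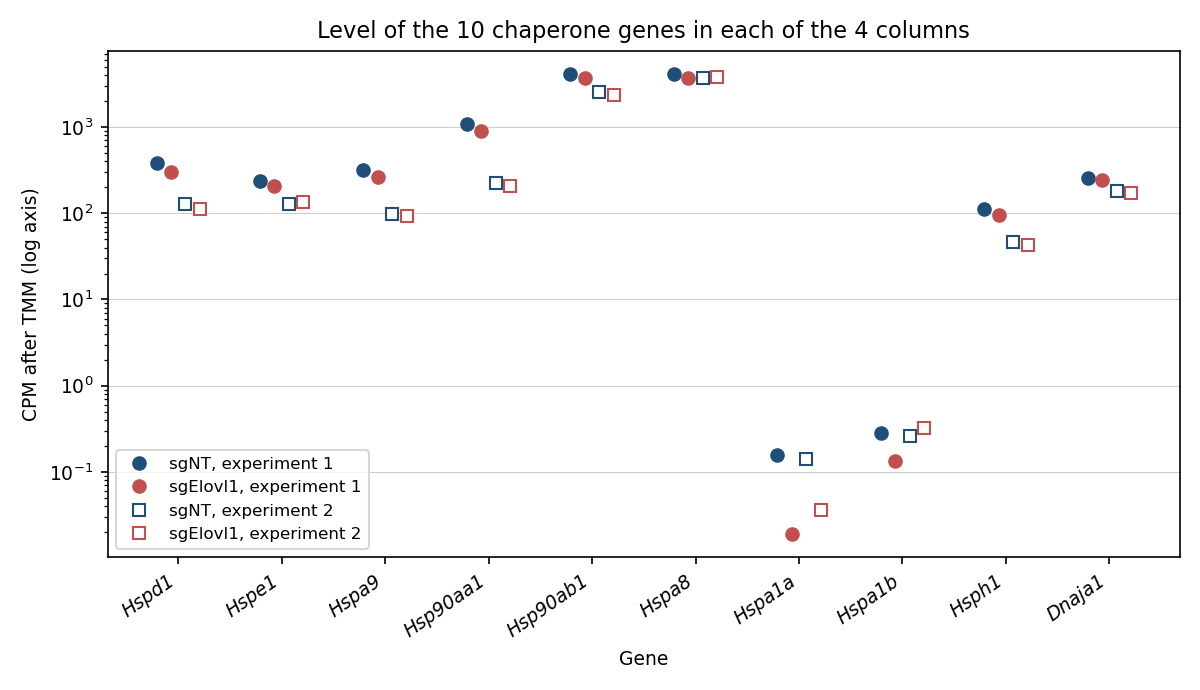
Level of each of the 10 genes in the 4 columns, as CPM after TMM on a log axis, with circles for experiment 1, squares for experiment 2, blue for sgNT and red for sgElovl1; there is 1 value per column and no error bar. For Hsp90aa1 the circles lie at 1100 and 901 CPM and the squares at 222 and 205 CPM, whereas for Hspa8 all 4 points lie between 3676 and 4159 CPM.

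Hspd1 encodes Hsp60, the barrel of the mitochondrial chaperonin, and Hspe1 encodes Hsp10, the lid that closes it. The genes lie head to head. Promoter entries were taken from RefSeq on GRCm38.p6 as 250 bases before to 50 after each start. The entry of Hspe1 and 1 of the 2 entries of Hspd1 hold the same match to a heat shock element on opposite strands, at chr1:55088053-55088082 (minus strand for Hspd1, plus strand for Hspe1), and the other Hspd1 entry holds none. The stretches are shown, 5′ to 3′ on the strand of each gene, because the same letters lie before a start of both genes; capitals mark the overlapping matches to TTCNNGAANNTTC and its reverse complement GAANNTTCNNGAA:
Hspd1: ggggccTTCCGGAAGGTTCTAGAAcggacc
Hspe1: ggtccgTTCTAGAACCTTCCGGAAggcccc
The capitals run from 144 to 127 bases before that start of Hspd1 and from 89 to 72 bases before the start of Hspe1, and GENCODE vM21 annotates an exon over all 30 bases. Among 26742 genes with a promoter entry 0.520% held such a match of 3 units on either strand.

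Hspd1 counts gave 384 CPM in sgNT and 305 CPM in sgElovl1 cells of experiment 1, and 127 and 111 CPM in experiment 2. Both sgElovl1 columns were thus below the sgNT column of their own experiment, and both experiment 2 columns were below either experiment 1 column. Between guides it differed by -0.27 on the log2 scale (SE 0.06; edgeR, adjusted p = 0.00727), which split into -0.33 within experiment 1 and -0.20 within experiment 2. Between experiments it was -1.52 (SE 0.07, adjusted p = 1.87e-116 in edgeR), or 2.87-fold lower in experiment 2. The guide call held with both other scalings, with the mitochondrial and 20 most counted genes left out of the scaling, with no filter and in limma-voom, but not with genes of at least 5 CPM (adjusted p = 0.0562) or in DESeq2, by its Wald test (adjusted p = 0.153) or its likelihood-ratio test. The sgElovl1 columns were displaced along the difference between the experiments, with a slope of 0.0887 over 9756 genes of at least 5 CPM. With that displacement taken out the fold change of Hspd1 was -0.13 (edgeR, adjusted p = 0.636). The offset is this slope times the experiment difference of each gene, so it moves genes with a large experiment difference the most. It would also take out a guide effect in that direction, and so cannot decide whether Hspd1 differs with the guide. Leaving out 1 column leaves guide as the only term, so that the experiments enter the comparison: Hspd1 then had 0.70 and -1.20 when the sgNT or the sgElovl1 column of experiment 1 was omitted, -0.86 and 0.27 when that of experiment 2 was, and was not called in any of them. It was also not called in a fit of all 4 columns with no experiment term (-0.30, adjusted p = 1.00).

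Hspe1, the neighbour on the other strand, had 236 and 207 CPM in sgNT and sgElovl1 cells of experiment 1 and 129 and 135 CPM in experiment 2. The guides overlapped and the experiments did not. Between guides the log2 fold change of Hspe1 was -0.064 (95% interval -0.19 to 0.060; edgeR, adjusted p = 0.806), from -0.19 within experiment 1 and 0.067 within experiment 2. Between experiments Hspe1 was 1.67-fold lower in experiment 2 (log2 -0.74, SE 0.06, adjusted p = 4.82e-30 in edgeR). The ratio of Hspd1 to Hspe1 counts was 1.62 and 1.47 in experiment 1 and 0.985 and 0.821 in experiment 2, for sgNT and sgElovl1 in that order. The barrel transcript was therefore the more counted of the pair in experiment 1 and the less counted in experiment 2, without regard to length. Per kilobase of transcript Hspe1 was above Hspd1 in every column, at 167 to 305 against 45.9 to 158 CPM. Of the windows of 100 bases in each transcript, 26.9% for Hspd1 and 20.4% for Hspe1 also occur in another annotated gene, and the pseudogene Hspd1-ps3 itself had 0.251% to 0.373% of the Hspd1 counts.

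Hspa9, also called mortalin, is the mitochondrial Hsp70 that powers import through the inner membrane. Its level was 318 and 260 CPM in sgNT and sgElovl1 cells of experiment 1, and 97.5 and 91.9 CPM in experiment 2. The sgElovl1 value was the lower within each experiment, and the experiments stood well apart. With the guide Hspa9 differed by -0.19 (95% interval -0.31 to -0.065 before adjustment; edgeR, adjusted p = 0.129), from -0.29 within experiment 1 and -0.085 within experiment 2. The difference between experiments was -1.60 (SE 0.07, adjusted p = 1.00e-128 in edgeR), which is 3.04-fold lower in experiment 2. The ratio of Hspa9 to Hspd1 counts was 0.827 and 0.855 in sgNT and sgElovl1 cells of experiment 1 and 0.765 and 0.826 in experiment 2, so that these mitochondrial members kept a similar proportion while both were lower in experiment 2. None of the Hspa9 windows of 100 bases occurs in another gene.

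Hsp90 completes the folding of many kinases and receptors. Hsp90aa1, the more inducible form, had 1100 and 901 CPM in sgNT and sgElovl1 cells of experiment 1 and 222 and 205 CPM in experiment 2. Its difference between experiments was -2.22 (SE 0.07, adjusted p = 3.03e-208 in edgeR), or 4.66-fold lower in experiment 2, and placed it at rank 14 from the lowest among the 9756 genes of at least 5 CPM. Hspa9 stood at rank 83 and Hspd1 at rank 104 on that scale. The guide difference of Hsp90aa1 was -0.21 (95% interval -0.34 to -0.073 before adjustment, edgeR adjusted p = 0.114), from -0.29 and -0.12 within experiments 1 and 2. It was -0.0084 with the displacement between the experiments taken out, an offset that moved Hsp90aa1 the most of the members. Of its windows, 47.5% occur elsewhere, mostly in the pseudogene Gm12346, which had 0.288% to 0.378% of the Hsp90aa1 counts.

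Hsp90ab1, the constitutive form, had 4126 and 3701 CPM in experiment 1 and 2571 and 2369 CPM in experiment 2, for sgNT and sgElovl1. It was 1.58-fold lower in experiment 2 (log2 -0.66, SE 0.08, adjusted p = 1.20e-15 in edgeR). Its guide difference was -0.14 (95% interval -0.29 to 0.020; edgeR, adjusted p = 0.566), from -0.16 and -0.12 within experiments 1 and 2. The proportion of the forms moved with the experiment, at 0.267 and 0.243 Hsp90aa1 counts per Hsp90ab1 count in experiment 1 and 0.0866 and 0.0865 in experiment 2. Within an experiment the guides gave close values of this ratio.

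**Figure D2:**
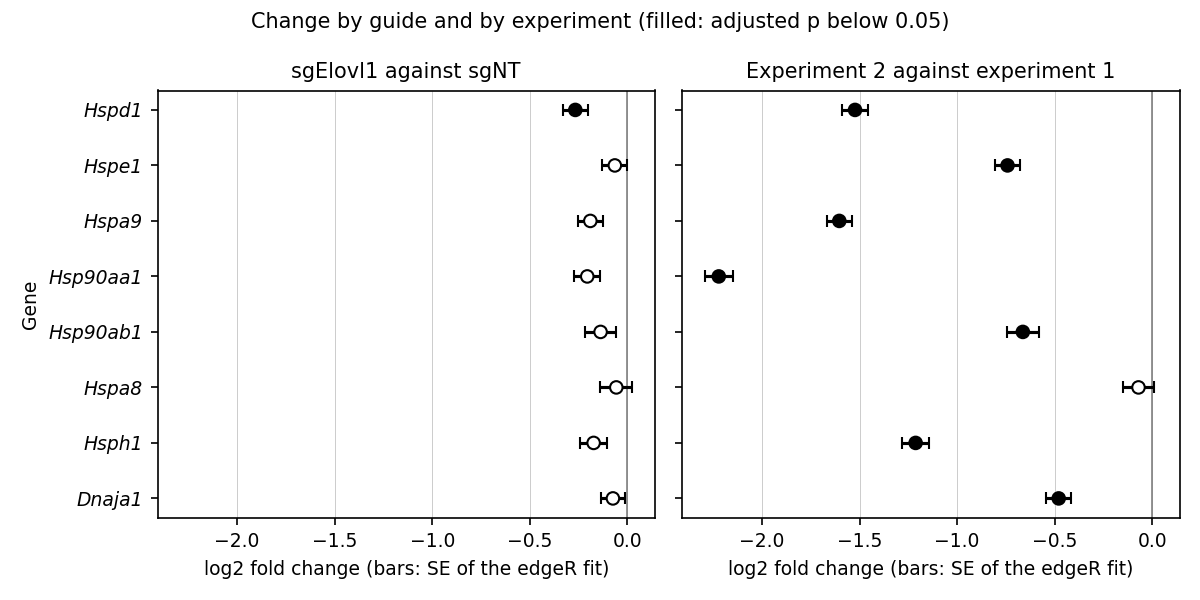
Log2 fold changes of the 8 members of at least 5 CPM between guides (left) and between experiments (right) on a common axis, with bars for the SE of the edgeR fit and filled points for an adjusted p below 0.05. The guide values lie between -0.27 and -0.057 with only Hspd1 filled, while the experiment values reach -2.22 for Hsp90aa1 and only Hspa8, at -0.070, is open.

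Hspa8, or Hsc70, is the constitutive cytosolic Hsp70 that folds new proteins and strips clathrin from vesicles. It had 4159 and 3712 CPM in sgNT and sgElovl1 cells of experiment 1, and 3676 and 3808 CPM in experiment 2. Both guides and both experiments overlapped. The difference between experiments was -0.070 (95% interval -0.23 to 0.090; edgeR, adjusted p = 0.489), from -0.18 in sgNT and 0.037 in sgElovl1 cells. It was 0.013 with upper-quartile scaling, 0.020 without sgNT of experiment 1, and -0.15 and called without sgElovl1 of experiment 1 (adjusted p = 0.0315), the only setting that called it. With the guide Hspa8 differed by -0.057 (95% interval -0.22 to 0.10; edgeR, adjusted p = 0.894), from -0.16 within experiment 1 and 0.051 within experiment 2. Of the Hspa8 windows, 62.8% occur in another gene, and the pseudogene Gm15459 had 4.58% to 6.51% of its counts, so the level of Hspa8 is uncertain where reads could be assigned to either.

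Hspa1a and Hspa1b, adjacent genes for the stress-inducible Hsp70, are nearly silent in many cells until heat or proteotoxic stress. Hspa1b had 18 and 7 counts in sgNT and sgElovl1 cells of experiment 1 and 13 and 18 counts in experiment 2. These correspond to 0.133 to 0.325 CPM, with no common order of guides or experiments. Between guides Hspa1b differed by -0.34 with a 95% interval of -2.06 to 1.37, and the difference between experiments was 0.53 with an interval of -1.18 to 2.25, so that even large differences were not detectable at this depth. Hspa1a had 10 and 1 counts in experiment 1 and 7 and 2 counts in experiment 2, did not pass the filter on low counts and was not tested. Both sgElovl1 values of Hspa1a lay below the limit of 3 counts, and no fold is given. The genes share 48.6% and 49.9% of their windows with other genes, for the most part with each other, and the split of reads between them is uncertain.

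Hspa1a and Hspa1b, for all their low counts, hold a match to a heat shock element close to the start. The stretches below are shown, 5′ to 3′ on the strand of the gene, because each of the 6 members with a promoter entry held a match of 2 units in at least 1 entry, against 14.6% of the 26742 genes with an entry; capitals mark GAANNTTC or its reverse complement TTCNNGAA. They lie on GRCm38.p6 at chr17:34972242-34972271 and chr17:34959324-34959353, both minus strand, chr5:149636351-149636380, minus strand, and chr4:40722333-40722362, plus strand:
Hspa1a: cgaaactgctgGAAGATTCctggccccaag
Hspa1b: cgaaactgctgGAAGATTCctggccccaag
Hsph1: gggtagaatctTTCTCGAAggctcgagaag
Dnaja1: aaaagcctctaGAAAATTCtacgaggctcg
The Hspa1a and Hspa1b stretches are identical, with the capitals 104 to 97 bases before both starts. Those of Hsph1 are 54 to 47 or 33 to 26 bases before its annotated starts, and those of Dnaja1 124 to 117 bases before 1 of its starts. GENCODE vM21 annotates an exon over 26 of the 30 bases of the Hsph1 stretch and over all 30 of the Dnaja1 stretch. It annotates an exon over 0 bases of the Hspa1a and Hspa1b stretches. Hspd1 and Hspe1, the other members with an entry, share the same letters on opposite strands, so the 6 members are not independent cases. Allowing 1 mismatch to the 3 units, all 6 held a match, against 6.88% of all genes. Of the members that carry these letters, Hspd1, Hspe1, Hsph1 and Dnaja1 were called, at 1.39-fold to 2.87-fold lower in experiment 2. Hspa1b, at 7 to 18 counts, was not called, and Hspa1a was not tested. A match in the sequence is a description of the letters only.

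Hsph1 encodes Hsp110, an exchange factor that releases nucleotide from Hsp70. It had 112 and 95.9 CPM in sgNT and sgElovl1 cells of experiment 1, and 46.5 and 43.0 CPM in experiment 2. It was 2.32-fold lower in experiment 2 (log2 -1.21, SE 0.07, adjusted p = 1.23e-66 in edgeR). Between guides Hsph1 differed by -0.17 (95% interval -0.31 to -0.039 before adjustment; edgeR, adjusted p = 0.261), from -0.23 within experiment 1 and -0.11 within experiment 2. Hsph1 shares none of its windows with another gene.

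Dnaja1 is an Hsp40 that delivers clients to Hsp70 and starts its cycle. Its level was 253 and 240 CPM in sgNT and sgElovl1 cells of experiment 1, and 182 and 173 CPM in experiment 2. The difference between experiments, -0.48 (SE 0.06, adjusted p = 2.81e-13 in edgeR), was the smallest of the 7 that were called, at 1.39-fold lower. Its guide difference was -0.074 (95% interval -0.20 to 0.050; edgeR, adjusted p = 0.756), nearly the same within experiments 1 and 2, at -0.076 and -0.072.

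Across the 9 tested members the median difference between experiments was -0.74, beside -0.0025 over all genes tested. The median of the members was -0.87 in sgNT and -0.64 in sgElovl1 cells. For genes of at least 5 CPM the medians were -0.98 over the 8 members and -0.069 over all 9756. Of the members 4 were called and more than 2-fold lower in experiment 2, namely Hsp90aa1, Hspa9, Hspd1 and Hsph1. The same held for 6.07% of all genes, and for 492 of the 9756 genes of at least 5 CPM. The difference between experiments was smaller in sgElovl1 than in sgNT cells in 8 of the 9 members, and in 8836 of the 16006 genes tested. Whether these differences depend on the guide was not tested, because each guide has 1 column per experiment. Other measures moved with the experiment as well: NK cell markers, which include Eomes, summed to 256 and 231 CPM in experiment 1 and 154 and 158 CPM in experiment 2, and stromal markers to 26.0 and 31.8 CPM against 50.2 and 51.5 CPM. Their part in the result was not tested, and in bulk RNA fewer cells of a type and less RNA per cell cannot be told apart. Ncr1 had no count in any column, so the sum of the NK cell markers need not stand for NK cells.

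Across the guides all 9 tested members had fold changes below 0, as did 8564 of the 16006 genes tested, with a median of -0.17 for the members and -0.014 for all genes. In experiment 1 all 9 were below 0 and in experiment 2 6 of 9, with medians of -0.23 and -0.085. Over all genes 8706 and 8003 were below 0 in experiments 1 and 2, with medians of -0.024 and -1.80e-06. Of the 9756 genes of at least 5 CPM, 5533 were below 0 over both experiments, with a median of -0.018. Among the members only Hspd1 was past the threshold. With the displacement between the experiments taken out, the 8 members of at least 5 CPM lay between -0.13 and 0.0016 and none was called. Hspe1 was the one among them that changed sign, to 0.0016. The offset moves each gene by its own experiment difference and would also take out a guide effect in that direction. These values therefore cannot decide whether the members differ with the guide.

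**Figure D3:**
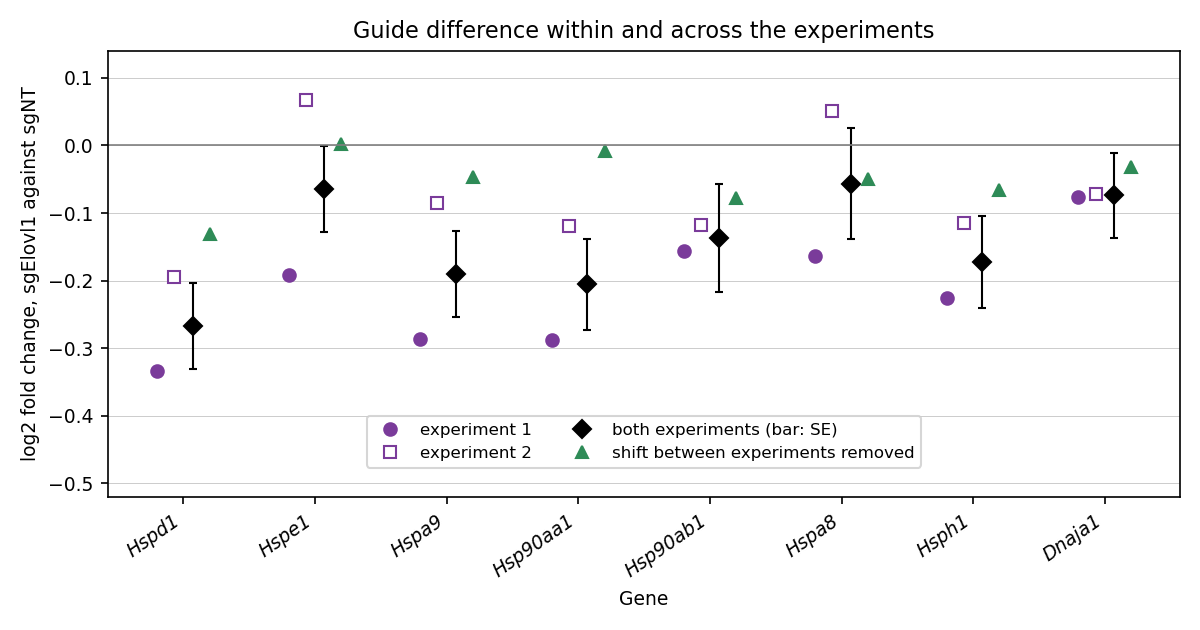
Log2 fold changes between guides of the 8 members of at least 5 CPM in experiment 1 (purple circles), experiment 2 (open purple squares), over both (black diamonds, bars for the SE) and with the displacement between the experiments taken out (green triangles). Hspe1 lies at -0.19 and 0.067 and Hspa8 at -0.16 and 0.051 in the 2 experiments, on opposite sides of 0, and the triangles lie between -0.13 and 0.0016.

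The other genes of protein folding were read from 10 lists of 126 genes, of which 114 were tested. In experiment 2, 75 were lower and 14 higher, with a median of -0.46. Over all genes tested 29.2% were lower and 26.4% higher. Of the 9756 genes of at least 5 CPM 4012 were lower and 3143 higher, and the counts below stand beside these. No gene of the 10 lists was called between the guides, with a median of -0.062. Over all genes tested 0.437% were lower and 0.762% higher in sgElovl1 cells. In the list of endoplasmic reticulum chaperones, which holds no Hsp40 gene, all 10 tested genes were lower in experiment 2, with a median of -1.14. Pdia6, a disulfide isomerase, had 221 and 199 CPM in experiment 1 and 84.1 and 75.8 CPM in experiment 2 (log2 -1.39, SE 0.07), and Canx, which holds glycoproteins, had 367 and 344 against 159 and 137 CPM (log2 -1.27, SE 0.06). Between guides both had -0.15 (adjusted p = 0.346 and 0.341 in edgeR). Of the 10 genes of this list with a promoter entry none held a 2-unit heat shock element, against 14.6% of all genes with an entry. Of the 12 other targets of heat shock factor 1 with an entry only 16.7% held one, so that a missing match says little. The part of these elements in the differences between experiments was not tested.

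The helpers of Hsp70 and Hsp90 followed the same direction. Of 21 cochaperones 13 were lower and 3 higher in experiment 2, with a median of -0.60. Stip1, which links Hsp70 to Hsp90, was at -1.47 (SE 0.07), from 240 and 232 CPM to 87.6 and 82.7 CPM, and Bag2, an inhibitor of client ubiquitination, was at -1.77 (SE 0.19) at only 2.35 to 8.30 CPM. Unc45a, a chaperone of myosin, was higher in experiment 2 by 0.64 (SE 0.06) and had a guide difference of 0.18 (adjusted p = 0.159 in edgeR). In the overlapping list of other targets of heat shock factor 1, 8 of 11 were lower and 2 higher, with Stip1, Cacybp (-1.29, SE 0.07) and Fkbp4, an Hsp90-bound immunophilin (-1.15, SE 0.07), among those that fell. Fkbp4 and Dnajb1, a heat-inducible Hsp40, had guide differences of -0.17 and -0.21 (adjusted p = 0.229 and 0.125 in edgeR).

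The cytosolic chaperonin, which folds actin and tubulin, and prefoldin, which feeds it, had 11 of 14 genes lower and 2 higher in experiment 2. Cct6a and Cct3, subunits of the ring, were at -1.40 and -1.20 (SE 0.06 for both), and the guide differences of Pfdn1 and Cct5 were -0.21 and -0.20 (adjusted p = 0.111 and 0.121 in edgeR). The mitochondrial cofactors and proteases, the list nearest in function to Hspd1 and Hspa9, had 12 of 19 lower and 2 higher and a median of -0.38. Phb, a prohibitin of the inner membrane, was at -1.73 (SE 0.07), and Lonp1, a protease of the matrix, at -0.98 (SE 0.06). Hscb, an Hsp40 of iron-sulfur cluster assembly, and Spg7, a protease subunit of the inner membrane, were the 2 that were higher, at 0.51 and 0.52, and were chosen after their values were seen. Between guides Oma1, a stress-activated protease of the inner membrane, had -0.30, and Clpb had -0.20 (adjusted p = 0.194 and 0.237 in edgeR).

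Of 6 other Hsp70 and Hsp110 genes tested, 4 were lower and none higher in experiment 2. Hspa13 was at -1.01 (SE 0.13) and Hspa4, a close relative of Hsph1, at -0.72 (SE 0.06), with guide differences of -0.22 and -0.078 (adjusted p = 0.551 and 0.734 in edgeR). The other Hsp40 genes of class A and B were divided, with 5 of 12 lower and 2 higher. That lower share is close to the share of all genes of at least 5 CPM. Dnaja2 was at -0.77 (SE 0.07) and the mitochondrial Dnaja3 at -0.68 (SE 0.08). Dnaja4 and Dnajb9 were the 2 that were higher, at 0.55 and 0.63, and were chosen after their values were seen. Class C had 13 of 22 lower and 3 higher, with Dnajc2, a ribosome-bound partner, at -0.91 (SE 0.06) and Dnajc21 at -0.86 (SE 0.08). The smallest p between guides in this class was that of Dnajc16, at -0.35, and of Dnajc14, at -0.14 (adjusted p = 0.170 and 0.474 in edgeR). Of the 9 small heat shock proteins only Hspb6 and Hspb11 passed the filter, and Hspb11 was lower in experiment 2 (-0.37, SE 0.13), while their guide differences were 0.20 and -0.017.

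All 5 tested heat shock factors and regulators were lower in experiment 2, with a median of -0.47. Hsf1, the factor that drives the heat shock genes, had 39.8 and 42.7 CPM in sgNT and sgElovl1 cells of experiment 1 and 32.4 and 37.6 CPM in experiment 2, at -0.24 (SE 0.08). Hikeshi, which carries Hsp70 into the nucleus, was at -0.83 (SE 0.08) and Hsf2 at -0.48 (SE 0.16). Between guides the list had a median of 0.11, with Hsf1 at 0.16 and Hikeshi at 0.17 (adjusted p = 0.428 and 0.405 in edgeR).

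**Figure D4:**
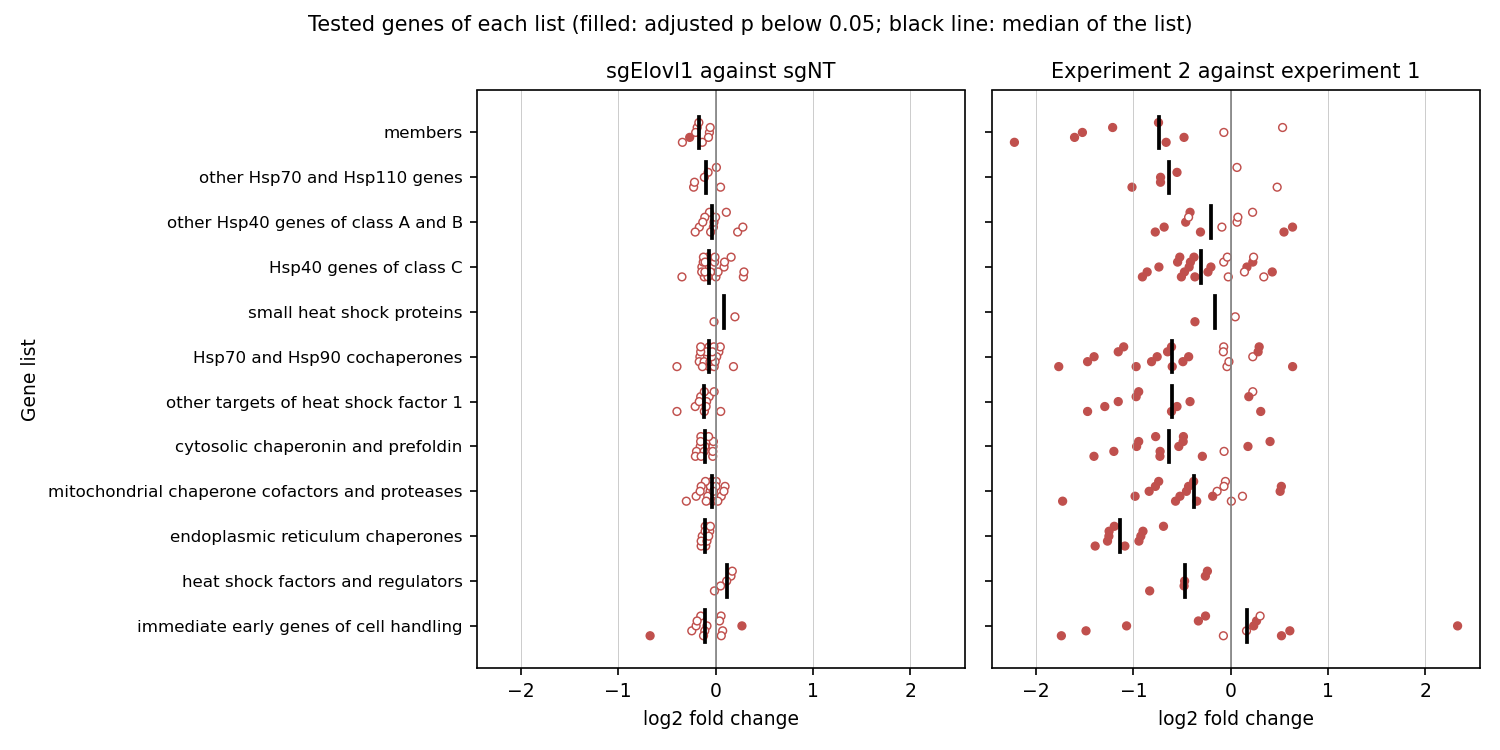
Log2 fold changes of the tested genes of each list between guides (left) and between experiments (right), 1 point per gene, filled where the adjusted p was below 0.05, with the median of the list as a black line. On the right the medians run from -1.14 for the endoplasmic reticulum chaperones and -0.74 for the members to 0.16 for the immediate early genes, and on the left from -0.17 for the members to 0.11 for the regulators.

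Immediate early genes, which respond within minutes to stimulation or to handling of cells, were read as a further list. Of 13 genes 5 were higher and 5 lower in experiment 2, with a median of 0.16, and their summed level was 1202 to 1282 CPM in the 4 columns. Fosb was higher in experiment 2, by 2.33 (SE 0.12), and Egr1 was lower, at -1.49 (SE 0.07). Between guides Egr1 had -0.67 (SE 0.07; edgeR, adjusted p = 2.14e-19), from -0.29 within experiment 1 and -1.11 within experiment 2, and Jun rose by 0.27 (SE 0.08, adjusted p = 0.0440 in edgeR). The SE rests on a spread shared by all genes and does not reflect how far Egr1 differed between the experiments. The part of these genes in the differences of the chaperones was not tested.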

How the data were processed

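The authors aligned reads of strand-specific mRNA libraries to GRCm39 with STAR 2.7.10b (versions from the submitters' processing notes), counted whole genes in the reverse-stranded mode with featureCounts 2.0.1 in R 4.3.3, and summed replicate mice of an experiment. The deposited table held these raw counts for 56805 gene symbols in 4 columns. How reads with several alignments were handled is not given in the sources used here. For their own tests the authors used DESeq2 1.42.0.

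The members and lists were chosen with earlier results of these data known. Genes were kept by filterByExpr with the guide as factor (16006 genes; 32132 had no count) and, after TMM scaling, compared in edgeR 4.0.16 (R 4.3.3) by its quasi-likelihood test, with experiment and guide as terms, Benjamini-Hochberg adjustment over all genes tested and a threshold of 0.05. There was 1 residual degree of freedom and the prior degrees of freedom were infinite, so SE, 95% intervals and p-values rest on a dispersion shared by all genes (biological coefficient of variation 6.98%). The code was tested on simulated data. Limits from low counts cover counting error only, and the intervals add no more than that shared dispersion.

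The rule for named genes took the members and Elovl1. From each list it took, between guides, up to 4 genes past the threshold, or the 2 of smallest p if fewer than 2 passed, and between experiments up to 2 genes past the threshold with the largest change at a mean of at least 5 CPM. Genes were not ranked by likeness to the members, since 4 columns are too few. Transcript lengths and shared windows of 100 bases came from GENCODE vM21 and promoters from RefSeq, both on GRCm38, which is not the build of the counts. The promoter table held 32544 promoters of 26742 genes. Hspa8, Hsp90aa1, Hsp90ab1 and Hspa9 had no entry in the promoter table, so their promoters were not searched.

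Alternatives were DESeq2 size factors, upper-quartile factors, mitochondrial genes and the 20 most counted genes removed before scaling, no filter, a mean of at least 5 CPM, both tests of DESeq2 1.42.0, limma-voom (limma 3.58.1), a fit without the other term, each column left out with 1 term in the model, and an offset that removed the displacement of sgElovl1 columns along the experiment difference.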

Additional observations from a re-analysis of the deposited data

Results flagged for a closer look

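Among the members 3 moved in opposite directions under the same contrast in different groups. The differences between the groups were not tested, since each group has 1 column. Between guides, Hspe1 had a log2 fold change of 0.067 in experiment 2 and -0.19 in experiment 1, and Hspa8 had 0.051 and -0.16. Hspa1b had 0.28 and -0.92 at 7 to 18 counts per column. Between experiments, Hspa8 had 0.037 in sgElovl1 and -0.18 in sgNT cells, and Hspa1b had 1.09 and -0.11. Neither Hspe1 nor Hspa8 was called between guides, and neither Hspa8 nor Hspa1b was called between experiments.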

How the results depend on the processing

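No paired analysis was possible because the deposited columns sum the mice and carry no replicate numbers, which concerns pairing by replicate only, since the guides were compared within experiments. Between experiments, 7 members were lower under all 8 alternatives with 4 columns, with fold changes of Hsp90aa1 from -2.23 to -2.14, and 7 to 8 with a column left out. The count of all genes higher in experiment 2 was 4219, and 2804 to 4445 with a column left out. Hspa8 reversed to 0.013 with upper-quartile factors, and with a column left out it ran from -0.15 to 0.020.

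Between guides, 1 member was lower, and 0 were at a mean of at least 5 CPM, in both DESeq2 tests, with no experiment term, with the displacement removed, and with any column left out (0 to 0). Over all genes 70 were lower and 122 higher. The lower count was 44 with DESeq2 size factors, 44 with the mitochondrial and most counted genes removed, 28 with no filter, 5 at a mean of at least 5 CPM, 4 in each DESeq2 test, 23 with the displacement removed and 0 to 2 with a column left out. The higher count was 66 with no filter, 30 at a mean of at least 5 CPM, 22 in each DESeq2 test, 49 with the displacement removed and 0 to 6 with a column left out. The count was 0 in both directions with no experiment term, with 19 genes at an unadjusted p under 0.05 in edgeR, and 103 to 411 genes were at that level with a column left out. Elovl1 then had -0.80 with no experiment term and -0.89 to -0.68 with a column left out, and was not called (adjusted p = 1.00 in edgeR). The split of higher against lower calls was 132 against 44 with DESeq2 size factors, 173 against 44 with the mitochondrial and most counted genes removed and 182 against 57 with upper-quartile factors.

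With a column left out, the difference between experiments enters the comparison of guides. The fold changes then ran from -1.20 to 0.70 for Hspd1, -0.44 to 0.40 for Hspe1, -1.17 to 0.85 for Hspa9, -1.69 to 1.31 for Hsp90aa1, -0.50 to 0.24 for Hsp90ab1, -0.12 to 0.029 for Hspa8, -1.003 to 0.25 for Hspa1b, -0.88 to 0.57 for Hsph1 and -0.33 to 0.18 for Dnaja1. Those of the 7 members of at least 5 CPM other than Hspa8 were above 0 without sgNT of experiment 1 and without sgElovl1 of experiment 2. Hspe1 had 0.0016 with the displacement removed.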
